A study of Mus musculus with 14 samples.

Results

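Glypicans and syndecans are the 2 families of proteoglycans that carry heparan sulfate (HS) chains on the cell surface. The mouse genes are Gpc1 to Gpc6 and Sdc1 to Sdc4. They were selected by symbol from the table of counts per gene, which held all 10 of them among its 17927 genes. RNA-SEQ had been done on whole brains of untreated mice at postnatal day 2 (P2), 7 WT and 7 Capn15 KO, from 6 litters. The methods give 4 samples per sequencing lane, so the libraries were spread over several lanes. The lane of each library was not known here, so differences between lanes were not tested. The lines were made from C57BL/6J mice. The methods describe a lacZ-Neo line and a FLOXed line of Capn15 and do not state which of them gave the sequenced brains. There were 2 female and 5 male WT brains, against 4 female and 3 male Capn15 KO brains. Replicate numbers are shared by a WT and a Capn15 KO brain of one litter, which were taken as a pair, so that there were 7 pairs. In litter B, which gave 4 brains, the number alone made the pairs. In every litter except F the WT and Capn15 KO brains differed in sex, so differences within pairs mix sex with genotype.

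A glypican is a globular core protein tethered to the outer membrane leaflet by a lipid anchor, with its HS chains close to the membrane. A syndecan crosses the membrane once, carries its chains far from it and has a short cytoplasmic tail that binds PDZ proteins. Through HS both families hold growth factors and morphogens, such as FGFs, Wnts and Hedgehog proteins, near their receptors, and in the developing brain they take part in proliferation, axon growth and synapse formation.

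The libraries held between 37620954 and 70910163 counts. CPM is a gene's count per 1000000 counts of its library, scaled with TMM factors, and 3 counts in the smallest library are 0.0797 CPM, so that all 10 genes lay far above the floor. Capn15, the gene targeted in the KO, was between 25.0 and 27.3 CPM in WT replicates 1 to 6 and between 12.2 and 14.5 CPM in Capn15 KO replicates 1 to 6. In those Capn15 KO libraries Capn15 was thus lower but not absent, and the source of its remaining counts was not tested. In litter F it was at 18.7 CPM in the library labelled WT replicate 7 and at 20.2 CPM in the library labelled Capn15 KO replicate 7, against the labels, so the fold changes of the 10 genes are also given without litter F. In the fit over all 14 libraries Capn15 had a log2 fold change of -0.81 (FDR = 0.0747 in edgeR's quasi-likelihood test), and without both libraries of litter F it had -0.98. In the fit, leaving out one library of a pair from a litter of 2 leaves the other with no weight in the difference between genotypes. The labels give neurons as the cell type, while markers of choroid plexus, endothelium, leptomeninges and glia were measured in every library, as in whole brain. In bulk RNA fewer cells of a type and less RNA per cell cannot be told apart.

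The genes lie on 8 chromosomes of GRCm38, and 4 of the glypican genes form 2 neighbouring pairs. Gpc4 (ENSMUSG00000031119, chromosome X, 52053021 to 52165252) and Gpc3 (ENSMUSG00000055653, chromosome X, 52272426 to 52613950) are both on the minus strand with 107173 bases between them. Gpc5 (ENSMUSG00000022112, chromosome 14, 115092215 to 116525179) and Gpc6 (ENSMUSG00000058571, chromosome 14, 116925315 to 117976544) are both on the plus strand with 400135 bases between them. Gpc1 (ENSMUSG00000034220) lies on chromosome 1 from 92831645 to 92860779, and Gpc2 (ENSMUSG00000029510) on chromosome 5 from 138273655 to 138280005. Sdc1 (ENSMUSG00000020592) lies on chromosome 12 from 8771323 to 8793715, Sdc2 (ENSMUSG00000022261) on chromosome 15 from 32920723 to 33034935, Sdc3 (ENSMUSG00000025743) on chromosome 4 from 130792537 to 130826319, and Sdc4 (ENSMUSG00000017009) on chromosome 2 from 164424247 to 164443887. Gpc2 shares 2376 exonic bases with Gm43720 on the same strand, and Gpc1 shares 977 with Ankmy1 on the other strand, so that reads there could have been assigned differently. Sdc3 shares 415 exonic bases with Gm26716 and Gpc5 shares 107 with Gm20713, both on the other strand.

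The results turn most on Gpc3 and Gpc5, so the 250 bases before their starts (RefSeq, GRCm38.p6) are shown. They are chrX:52613975-52614224 on the minus strand and chr14:115091965-115092214 on the plus strand, and neither overlaps an annotated exon. Capitals mark the GC box (GGGCGG) and the TATA motif (TATAAA), each searched on both strands, which do not overlap each other.
Gpc3: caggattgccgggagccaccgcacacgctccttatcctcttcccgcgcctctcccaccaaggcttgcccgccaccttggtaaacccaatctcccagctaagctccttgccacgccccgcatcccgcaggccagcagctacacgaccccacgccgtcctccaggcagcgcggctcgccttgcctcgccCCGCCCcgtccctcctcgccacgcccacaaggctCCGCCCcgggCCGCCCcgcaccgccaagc
Gpc5: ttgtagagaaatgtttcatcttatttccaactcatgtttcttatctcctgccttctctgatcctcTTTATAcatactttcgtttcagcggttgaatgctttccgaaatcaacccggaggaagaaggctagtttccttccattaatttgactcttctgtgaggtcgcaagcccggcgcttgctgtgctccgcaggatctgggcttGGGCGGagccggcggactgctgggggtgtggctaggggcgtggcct
The Gpc3 window was 71.6% G and C with 25 CG dinucleotides, and the Gpc5 window 51.2% with 12, while the median over the 32851 windows of the same length was 6. Windows were found for 7 of the 10 genes, which leaves Gpc1, Gpc6 and Sdc2 without one. All 250 bases of the Gpc4 window were exonic, as were 109 of the Sdc1 window and 68 of the Gpc2 window, and the Sdc4 window lay inside the annotated gene. The 7 windows held between 10 and 32 CG dinucleotides each, and the shares over all windows were not matched for this. GGGCGG was in 7 of these 7, and in 32.7% of all windows. TATAAA was in 1 of the 7, that of Gpc5, and in 12.4% of all windows. These matches describe the letters of the windows and are not binding sites.

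Levels of different genes were compared as CPM per kilobase of merged exons, in WT brains. Sdc3, the neuronal syndecan, was highest at 77.3 ± 3.53 (SD, n = 7), above 97.4% of 17909 genes. Gpc1, the most abundant glypican, followed at 29.8 ± 1.43 (SD, n = 7), and the ranges of the 7 libraries of these genes did not overlap each other or those of any other member. Sdc2 at 13.3 ± 1.08 and Gpc3 at 12.4 ± 1.42 (SD, n = 7 each) had overlapping ranges, 11.7 to 14.6 and 10.4 to 13.8.
Below them lay Sdc4, a syndecan of focal adhesions, at 7.09 ± 0.749, Gpc2 at 5.47 ± 1.15, Sdc1 at 5.43 ± 0.457 and Gpc5 at 4.51 ± 1.10 (SD, n = 7 each). Among these 4, each gene overlapped the next in the order. Gpc4, which astrocytes release to promote synapse formation, was at 1.86 ± 0.213 and Gpc6, its relative with the same known activity, at 1.36 ± 0.164 (SD, n = 7 each). The ranges of Gpc4 and Gpc6 overlapped, and both lay below every other member. In 4 of the 9 steps of the order the 7 WT values of one gene were all above those of the next. The order between overlapping genes depended on the length used. Per kilobase of the longest transcript, Gpc3 (15.02) stood above Sdc2 (13.3), Gpc5 (7.09) above Sdc1 (6.55) and Gpc2 (5.49), and Gpc6 (2.11) above Gpc4 (1.86), while Sdc3 and Gpc1 remained the highest. Of the 4274 merged exon bases of Gpc2, 2376 are shared with Gm43720 on the same strand. If reads there were not counted for Gpc2, its level per kilobase is too low, so its place in the order is uncertain.
Of the summed syndecan level in WT, 75.0% ± 1.94 (SD, n = 7) came from Sdc3, and of the summed glypican level 53.9% ± 0.959 (SD, n = 7) came from Gpc1. The summed levels were 103 ± 3.79 for syndecans and 55.4 ± 2.82 for glypicans in WT, and 105 ± 3.69 and 54.4 ± 2.58 in Capn15 KO (SD, n = 7 each). These sums differed between genotypes by less than the spread between replicates.

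**Figure D1:**
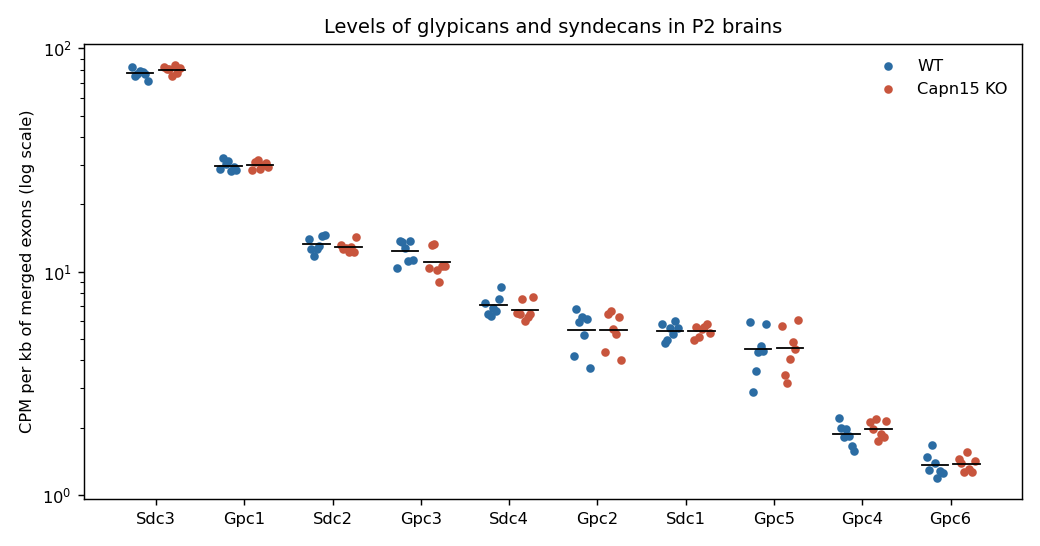
CPM per kilobase of merged exons (vertical axis, log scale) of the 10 genes in order of their WT mean, with 1 point per library, 7 WT in blue and 7 Capn15 KO in red, and the mean as a black line. Sdc3 (mean 77.3 in WT) and Gpc1 (29.8) stand above the rest, Gpc4 and Gpc6 lie lowest, and the points of both genotypes overlap for every gene.

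The question of the series was which mRNAs differ when Capn15 is lost. Gpc3, a glypican that binds Hedgehog and Wnt proteins and restrains growth, was the member with the largest difference and was lower in Capn15 KO in 7 of 7 pairs. It did not pass the test over all genes. In WT replicates 1 to 7 Gpc3 was at 28.0, 37.0, 36.5, 34.2, 30.02, 37.0 and 30.2 CPM. In Capn15 KO replicates 1 to 7 it was at 27.8, 35.3, 35.8, 27.2, 24.1, 28.5 and 28.4 CPM. The 2 groups overlapped, since both Capn15 KO brains of litter B were above WT replicates 1, 4, 5 and 7, while in litters C, D and E the Capn15 KO brain was far below its WT partner. The means were 33.3 ± 3.81 CPM in WT and 29.6 ± 4.34 CPM in Capn15 KO (SD, n = 7 each).
Within pairs, log2 CPM of Gpc3 differed by -0.33 in litter C, -0.32 in litter D and -0.38 in litter E. In the other litters the difference lay between -0.091 (F) and -0.0084 (A). Over 15227 genes, deviations from the genotype means correlated at -0.47, -0.10 and -0.068 within the pairs of litters C, D and E. Within the other pairs they correlated at 0.32 to 0.44, and the bearing of this on Gpc3 was not tested. The fit with terms for litter and sex gave Gpc3 a log2 fold change of -0.20 (standard error 0.0450, 95% interval -0.30 to -0.11, unadjusted p = 0.000503, FDR = 0.318 from edgeR's quasi-likelihood test), which placed Gpc3 at rank 28 of the 17927 genes by p. Flipping the signs of the 7 pair differences in an exact permutation test gave p = 0.0156, the smallest that 7 pairs allow, and permuting 7 against 7 libraries in another exact test, which ignores litter, gave p = 0.0950 (both two-sided and unadjusted). Neither exact test takes sex into account, and the paired brains differed in sex in every litter except F. Without litter F the same exact permutation tests gave p = 0.03125, the smallest that 6 pairs allow, and p = 0.106.
Without Capn15 KO replicate 7, and so with no weight on litter F, the log2 fold change of Gpc3 was -0.22 (standard error 0.0481, FDR = 0.313). With genotype alone in the model it was -0.17 (standard error 0.0897, unadjusted p = 0.0761 in edgeR's quasi-likelihood test). edgeR's likelihood ratio test gave Gpc3 an FDR of 0.0239 and DESeq2 an FDR of 0.0690, and over all 24 other settings the FDR lay between 0.0161 and 0.99996, with the log2 fold change below 0 in 24 of 24.

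Over the 10 genes, 0 had an FDR under 0.05 in edgeR's quasi-likelihood test, as did 0.00558% of all genes, and 1 (Gpc3, which was lower) had an unadjusted p under 0.05, as did 5.14% of all genes and 2.26% in that direction. Of the 10 fold changes 4 were below 0, as were 48.6% of all. The likelihood ratio test called 1 of the 10, Gpc3, and 0.19% of all genes. Without Capn15 KO replicate 7 the quasi-likelihood test called 0 of the 10 (0.039% of all genes) with 1 at an unadjusted p under 0.05 (3.74%), and the likelihood ratio test called 1 (0.212%) with 1 at that p (3.92%), in each case Gpc3. DESeq2 called 0 of the 10 (0.0967% of all genes) with 1 at an unadjusted p under 0.05 (3.21%), and limma-voom 0 (0.00558%) with 1 at that p (5.22%). Their median log2 fold change was 0.0041, beside 0.0015 over all genes. Only Gpc3 kept one direction in 7 of 7 pairs, and 0.597% of all genes were lower and 0.496% higher in 7 of 7. For 0 of the 10 were the ranges of WT and Capn15 KO free of overlap, which held for 0.00558% of all genes.
Gpc4, the X-linked neighbour of Gpc3, was between 4.18 and 5.82 CPM in WT (median 4.88) and between 4.63 and 5.78 CPM in Capn15 KO (median 5.23). Its log2 fold change was 0.071 with a 95% interval from -0.091 to 0.23, and it was lower in 3 of 7 pairs. With single libraries left out the value lay between 1.3e-05 (without WT replicate 7) and 0.14, and without both libraries of litter F it was 0.0030. The interval of Gpc4 did not contain the -0.20 of Gpc3, and the difference between the 2 genes was not tested.
For the other glypicans the intervals also spanned 0. Gpc1 was between 146 and 166 CPM in WT (median 152) and between 147 and 163 CPM in Capn15 KO (median 155), with a log2 fold change of 0.0033 and a 95% interval from -0.060 to 0.067. Gpc6 was between 7.62 and 10.7 CPM in WT (median 8.33) and between 8.09 and 9.998 CPM in Capn15 KO (median 8.94), with a log2 fold change of 0.057 and an interval from -0.079 to 0.19, and without litter F the value was 0.033. It was 0.095 without WT replicate 3. The intervals were -0.096 to 0.088 for Gpc2 and -0.10 to 0.11 for Gpc5. Without litter F the log2 fold changes were -0.0044 for Gpc1, -0.024 for Gpc2 and -0.0045 for Gpc5.

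Among the syndecans Sdc4, a co-receptor of integrins, had the lowest log2 fold change and Sdc3 the highest, and neither passed the test. Sdc4 was between 16.1 and 21.7 CPM in WT (median 17.6) and between 15.3 and 19.6 CPM in Capn15 KO (median 16.4). Its log2 fold change was -0.098 with a 95% interval from -0.21 to 0.017 (unadjusted p = 0.0887 in edgeR's quasi-likelihood test), and it was lower in 6 of 7 pairs. By replicate number Capn15 KO replicate 3 was the exception, at 19.1 CPM with its WT partner at 16.1 CPM. The pairs of litter B rest on numbering alone, and Capn15 KO replicate 2 (16.4 CPM) was also above WT replicate 3. The share of all genes lower in 6 of 7 pairs was not counted. Without Capn15 KO replicate 3 the log2 fold change of Sdc4 was -0.13 (unadjusted p = 0.00882, FDR = 0.754 in the same test). With libraries left out it lay between -0.13 and -0.072.
Sdc3 was between 429 and 496 CPM in WT (median 461) and between 451 and 506 CPM in Capn15 KO (median 483). It was lower in 2 of 7 pairs, and its log2 fold change was 0.054 with a 95% interval from -0.013 to 0.12 (unadjusted p = 0.105 in edgeR's quasi-likelihood test). WT replicate 7 was the lowest of all 14 libraries. The log2 fold change of Sdc3 was 0.10 without WT replicate 4 or without Capn15 KO replicate 4 (unadjusted p = 0.00586 and 0.00568 in edgeR's quasi-likelihood test, FDR = 0.457 and 0.454). It was 0.032 without replicate 5 of either genotype, 0.025 without WT replicate 7, and 0.028 without both libraries of litter F (unadjusted p = 0.373 in the same test). Sdc2, the syndecan of dendritic spines and mesenchymal cells, was between 41.4 and 51.6 CPM in WT (median 46.0) and between 43.1 and 50.5 CPM in Capn15 KO (median 45.2), with a log2 fold change of -0.040 and an interval from -0.12 to 0.043. By replicate number Sdc2 was also lower in 6 of 7 pairs, and without replicate 6 of either genotype its log2 fold change was -0.013. Sdc1, the epithelial and progenitor syndecan, was between 18.2 and 22.9 CPM in WT (median 21.3) and between 18.9 and 22.1 CPM in Capn15 KO (median 21.1), with a log2 fold change of 0.0057 and an interval from -0.10 to 0.12. Without litter F the log2 fold changes were 0.022 for Sdc1, -0.041 for Sdc2 and -0.089 for Sdc4.

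**Figure D2:**
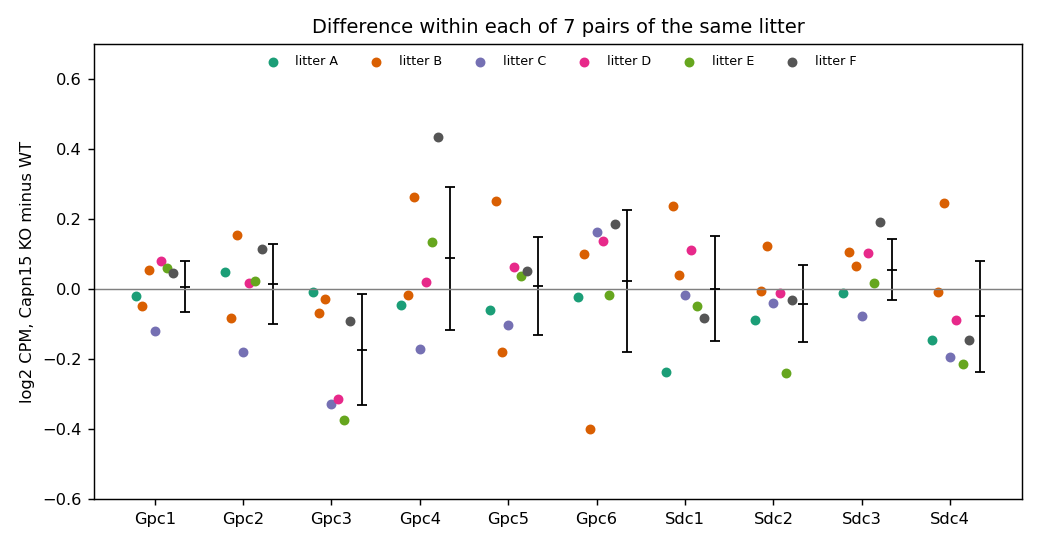
Difference of log2 CPM, Capn15 KO minus WT (vertical axis), within each of the 7 pairs, coloured by litter (litter B holds 2 pairs), with the mean and SD of the 7 differences as a black bar. All 7 points of Gpc3 lie below 0, from -0.38 to -0.0084, while the points of the other 9 genes lie on both sides of 0.

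Markers of other cell types were measured beside these genes. Of 8 choroid plexus markers, all present in every library, 6 were lower and 1 (Prlr) higher in Capn15 KO at an unadjusted p under 0.05, as were 2.26% and 2.88% of all genes, and 0 had an FDR under 0.05 in edgeR's quasi-likelihood test. Their summed level lay between 761 and 1000.2 CPM in WT and between 624 and 870 CPM in Capn15 KO, most of it from Ttr. It was lower in Capn15 KO in 7 of 7 pairs, as Gpc3 was, by -0.44 on the log2 scale in litter E and by -0.60 in litter F, where Gpc3 differed by -0.38 and -0.091. Of 8 markers of leptomeninges 2 were lower (Lum and Slc6a13) at an unadjusted p under 0.05, and their summed level lay between 259 and 385 CPM in WT and between 298 and 363 CPM in Capn15 KO. The part of these cells in the difference of Gpc3 was not tested. In each of the lists for neurons, radial glia and astrocytes, oligodendrocyte lineage, endothelium, pericytes, microglia and red blood cells, at most 1 gene per direction had an unadjusted p under 0.05, and the summed levels of the genotypes overlapped.

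Levels of Gpc2, Gpc5 and Gpc3 differed between litters, and the cause was not tested. These 3 of the 10 genes had an FDR under 0.05 in a joint test of litter (edgeR's quasi-likelihood test), beside 29.6% of all genes, and 5 of the 10 had an unadjusted p under 0.05, beside 41% of all genes, so that the shares were close to those of all genes. Gpc5, a glypican of astrocytes, was at 26.3 and 26.0 CPM in WT replicates 1 and 7 and at 25.3 and 26.9 CPM in their Capn15 KO partners. In the 4 brains of litter B it was at 12.9, 15.9, 15.4 and 14.05 CPM. The brains of litters C, D and E lay between, from 18.0 to 21.6 CPM. The mean of litter F was 1.81 times that of litter B (FDR = 3.84e-05 for litter in edgeR's quasi-likelihood test).
Gpc2, a glypican of developing neurons and their axons, ran the other way in litters A, B and F. The order was not opposite throughout, since the mean of litter E was above that of litter C for both genes. Gpc2 was at 18.0 and 18.6 CPM in litter A and at 15.8 and 17.1 CPM in litter F, and between 25.4 and 29.1 CPM in the 4 brains of litter B. Here the mean of litter B was 1.68 times that of litter F (FDR = 4.40e-05 in the same test).
Gpc3 was highest in litter B at 36.2 CPM and lowest in litter D at 27.1 CPM (means of 4 and 2 brains, FDR = 0.00266 for litter). In litter A its WT and Capn15 KO brains were at 28.0 and 27.8 CPM, and the 4 brains of litter B lay between 35.3 and 37.0 CPM. For the other 7 genes the FDR of litter was between 0.0764 and 0.451, and their litter means spanned at most 1.26 times. Without Capn15 KO replicate 7 litter was called for 3 of the 10 genes (29.3% of all genes), and without both libraries of litter F for 3 (27.5%). The likelihood ratio test called 4 (37.4%), with Sdc4 at FDR = 0.0235 beside Gpc2, Gpc3 and Gpc5.

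**Figure D3:**
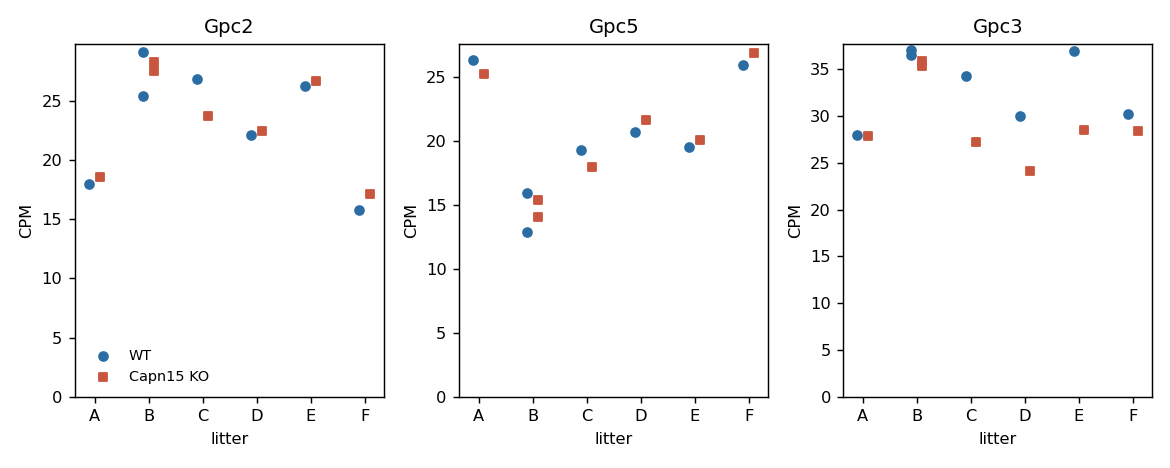
CPM (vertical axis, from 0) of Gpc2, Gpc5 and Gpc3 by litter (horizontal axis), with 1 point per brain, WT as blue circles and Capn15 KO as red squares. Gpc2 is lowest and Gpc5 highest in litters A and F, both are reversed in litter B, and Gpc3 differs between genotypes most in litters C, D and E.

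Over the 14 libraries the SD of log2 CPM was 0.343 for Gpc5 and 0.295 for Gpc2, above 96.3% and 93.6% of the 15227 genes with a mean of at least 1 CPM. It was 0.0602 for Gpc1 and 0.0652 for Sdc3, above 13.1% and 16.7% of them, and the median of these genes was 0.116. So the most abundant glypican and syndecan also had the lowest SD of the members. The SD includes counting error, which is larger at lower counts, and the comparison was not matched for level.
With log2 CPM centred within WT and within Capn15 KO, Gpc2 and Gpc5 had a Pearson r of -0.89 and a Spearman rho of -0.91 across the 14 libraries, and r was -0.87 without the 2 libraries farthest from the median of Gpc2. This was the lowest of the 45 pairs of members. By Pearson r Sdc2 and Sdc4 had the highest, with r = 0.81 and rho = 0.78 (r = 0.73 without the 2 farthest). By rho Gpc1 and Gpc2 did, with r = 0.77 and rho = 0.86 (0.71 without them), and without the 2 farthest Gpc2 and Gpc3 did, with r = 0.69 and rho = 0.79 (0.77 without them). In each pair of members the 2 farthest were taken by the first-named gene, and leaving them out does not take out differences between litters. Libraries of one litter share a litter, so these values describe the brains and carry no test.
Among 13887 protein-coding genes with a mean of at least 1 CPM, the 3 with the highest Pearson r to Gpc5 were Atad2, Hapln1 and Ncald, each at 0.99. For Gpc2 they were Isl1 at 0.98, Lipg at 0.96 and Scube3 at 0.96. Those of Gpc3 were Nudt16 at 0.96, Plrg1 at 0.93 and Pard6g at 0.93. Gpc4 was most like Spock1 (0.88), itself a proteoglycan, Cntnap2 (0.86) and Tm9sf4 (0.84), and Gpc6 most like Focad (0.88), Bmp2k (0.87) and BC028528 (0.84). Gpc1 had Zswim8 (0.94), Rnf215 (0.92) and Tcf3 (0.92) nearest. Among the syndecans Sdc3 had Cmip (0.95), Mrvi1 (0.91) and Nectin1 (0.89), and Sdc2 had Cenpp (0.93), Gstm5 (0.92) and Serinc1 (0.88). Sdc4 had Slc31a1, Slc6a20a (both 0.90) and Ndufa8 (0.89), and Sdc1 had Fmo1 (0.86), Heatr1 (0.84) and Parp1 (0.83). Each r is over 14 libraries that share litters, and the highest of many genes is high by selection.

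Gpc3 and Gpc4 are on the X chromosome, and the sex of the brains was in the model. Gpc3 was between 27.8 and 35.8 CPM in 6 female brains (median 32.1) and between 24.1 and 37.0 CPM in 8 male brains (median 29.3). Its log2 difference, male minus female, was -0.092 (95% interval -0.20 to 0.012, FDR = 0.927 in edgeR's quasi-likelihood test). Gpc4 was between 4.79 and 5.78 CPM in female and between 4.18 and 5.82 CPM in male brains, with a difference of -0.054 (interval -0.23 to 0.12, FDR = 0.966), which turned to 0.025 without Capn15 KO replicate 4. Of the 10 genes 0 were called for sex, and 0 had an unadjusted p under 0.05, beside 0.0669% and 5.04% of all genes. For the difference of genotypes between the sexes 0 of the 10 had an FDR under 0.05, as did 0.00558% of all genes, and 2 (Gpc4 and Sdc3) had an unadjusted p under 0.05, as did 6.85% of all genes. That comparison draws on every litter but cannot be made without litter F, the only litter with WT and Capn15 KO brains of the same sex. Litter F is also the one where Capn15 went against the labels.

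The genes that make, modify and use HS were counted next. Of 84 measured genes in 7 lists, 0 had an FDR under 0.05 for genotype in edgeR's quasi-likelihood test, beside 0.00558% of all genes, and 4 had an unadjusted p under 0.05, beside 5.14% of all genes. These 4 were higher in Capn15 KO, as were 2.88% of all genes at that p, and 0 were lower (2.26%). Their median log2 fold change was -0.00093, beside 0.0015 over all genes. Among the 7 enzymes of the linkage region, the 5 chain polymerases (Ext1, Ext2, Extl1, Extl2 and Extl3), the 15 modifying enzymes and the 8 cytoplasmic partners of syndecans, 0 had an unadjusted p under 0.05.
The 4 were Hpse, Hspg2, Spock1 and Cdon. Hpse, the heparanase that cuts HS chains and the 1 of 13 genes of trimming and shedding, had a mean of 1.13 ± 0.172 CPM in WT brains and of 1.40 ± 0.269 CPM after loss of Capn15 (SD, n = 7 each), a log2 fold change of 0.33 (FDR = 0.935 in edgeR's quasi-likelihood test). Of 9 other proteoglycans 2 were among them. Hspg2, which encodes perlecan of basement membranes, was at 22.8 ± 3.91 and 23.9 ± 2.34 CPM (log2 fold change 0.16). It was lower in Capn15 KO in 4 of 7 pairs, and the sex term of that model had an unadjusted p of 0.000614 for it. Spock1, which encodes testican-1, was at 104 ± 7.89 and 110.2 ± 5.80 CPM (0.073). Of 27 ligands and receptors it was Cdon, a Hedgehog co-receptor, at 23.3 ± 5.98 and 24.9 ± 6.98 CPM (0.099). The summed levels of each of the 7 lists overlapped between the genotypes. Litter was called for 30 of the 84 genes, beside 29.6% of all genes.

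**Figure D4:**
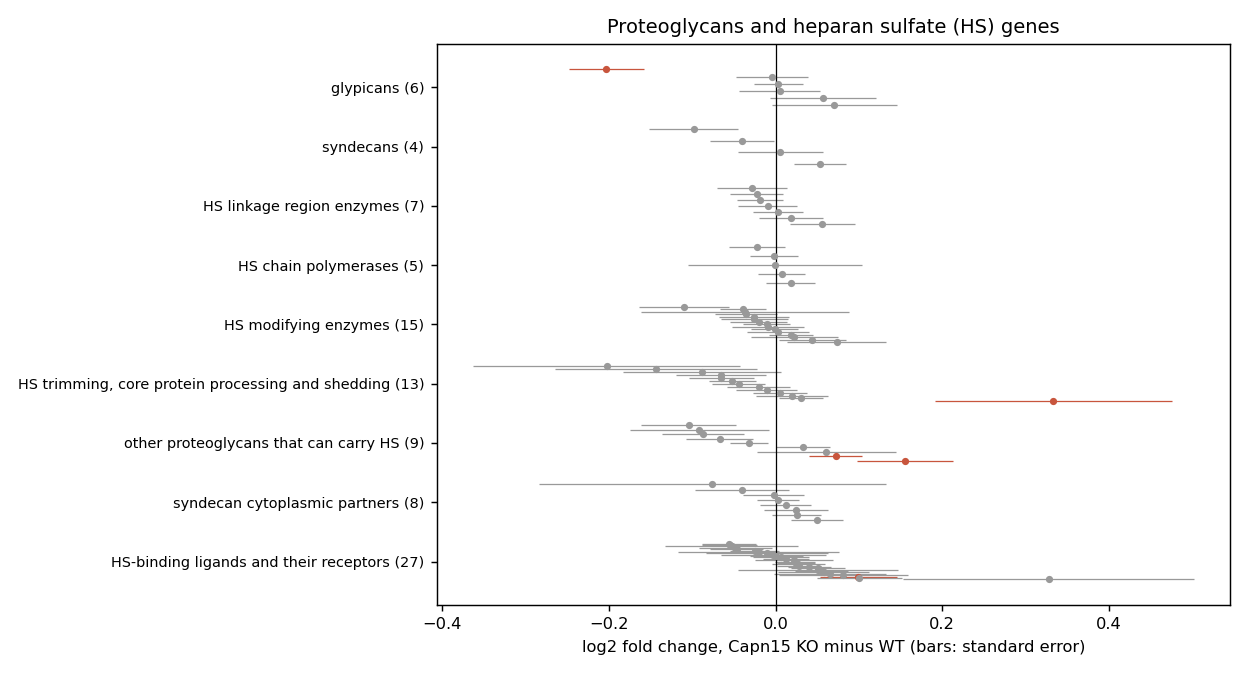
Log2 fold change, Capn15 KO minus WT (horizontal axis, with standard errors), from the fit with litter and sex, for each measured glypican, syndecan and gene of the 7 HS lists, with the number of genes in parentheses; red marks an unadjusted p under 0.05. The red points are Gpc3 at -0.20 and Hpse, Hspg2, Spock1 and Cdon between 0.073 and 0.33, and none has an FDR under 0.05.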

How the data were processed

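RNA-SEQ counts of 14 P2 brains (7 WT, 7 Capn15 KO) were used. The authors trimmed the reads with Trimmomatic, aligned them to GRCm38 with STAR and counted them per gene with HTSeq-count, and the deposited counts are not normalized. The submitters' processing notes also name featureCounts. The strand setting, annotation release and gene filter are not given in the sources used here, and the kit is TruSeq Stranded per the labels but ScriptSeq per the methods. Genotype and replicate number were read from the labels; the headers of the count columns gave each brain's litter and sex.

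edgeR 4.0.16 (R 4.3.3) was run with TMM factors over all 17927 genes, with litter, sex and genotype in the model, a quasi-likelihood test with default settings and an FDR under 0.05. limma 3.58.1 and DESeq2 1.42.0 were alternatives. Standard errors are the log2 fold change divided by the root of F. Log2 CPM used a prior count of 2. On simulated counts for the genotype test over 17927 genes, 200 of 200 genes with a log2 change of 1 were recovered with 17 false calls. The simulation held no litter or sex effect, and its changed genes were drawn from those with higher counts. Smaller changes were not simulated, so it does not show whether changes of the sizes reported here would be found. Same-numbered WT and Capn15 KO libraries are of one litter, and their deviations across 15227 genes had correlations from -0.47 to 0.44. These were below 0 in litters C, D and E and above 0 in the others. No library was a copy of another, the smallest chi-square per gene between any 2 being 4.66. Exon lengths came from GENCODE M21, which held 17909 of the genes by identifier. Exact tests are two-sided and unadjusted. P-values set a difference against the spread between these brains, which the main fit takes after litter and sex. The exact permutation over libraries ignores litter, and the sign-flip test takes the 2 pairs of litter B, set by replicate number, as independent. Both ignore sex, which differed within the pairs of every litter except F. Floors cover counting error only.

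All 10 members are named, and from each HS list at most 3 genes with the smallest unadjusted p under 0.05. For each member the 3 genes most like it over 14 libraries are named. Members, lists and tests were chosen with earlier results of these data known. Protein sequences were not used here. There were 24 planned settings and 1 added after seeing the data.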

Additional observations from a re-analysis of the deposited data

Results flagged for a closer look

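In 22 groups of 7 libraries (the 10 genes and Capn15, in WT and in Capn15 KO), the gap of the highest or lowest library to its nearest neighbour was divided by the range of the group. By Dixon's criterion 2 libraries stood apart, where 1.1 are given by chance at 1 in 20, and both were for Capn15, so that 0 of the 20 groups of glypicans and syndecans held such a library. One was the library labelled WT replicate 7, whose Capn15 level of 18.7 CPM was the lowest of its group, with a gap of 0.761 of the range. The other, labelled Capn15 KO replicate 7, had the highest of its group at 20.2 CPM, with a gap of 0.647 of the range. Both are of litter F, in which Gpc3 was at 30.2 and 28.4 CPM.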

How the results depend on the processing

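For genotype the count of called genes among glypicans and syndecans stayed at 0 under every setting except the likelihood ratio test, which called 1 (Gpc3) over all libraries and 1 without Capn15 KO replicate 7, a setting chosen after seeing the data. Over all genes it called 34 and 38 genes there, DESeq2 17 and the replicate block in place of litter 0, with 1 in the test used here, and the cause was not tested. Single libraries left out gave 0 to 7 genes, with 7 without Capn15 KO replicate 7 or without both libraries of litter F and 6 without WT replicate 7. The block changed no call of a member. For sex the same 3 fits over all genes, in the order of the likelihood ratio test, DESeq2 and the likelihood ratio test without Capn15 KO replicate 7, called 36, 19 and 42, and left-out libraries gave 11 to 16. For genotype by sex the likelihood ratio test called 48 genes and left-out libraries gave 0 to 4. That term could not be fitted without a library of litter F. For litter 3 to 4 members and 3626 to 5770 genes were called with libraries left out, and 4 and 6711 by the likelihood ratio test. With genotype alone the log2 fold change of Gpc2 turned to 0.0095 and that of Sdc1 to -0.0016, and with litter but not sex that of Gpc2 to 0.011. Without both libraries of litter F, and in the likelihood ratio test without Capn15 KO replicate 7, Gpc1 turned to -0.00444 and -0.00441, and Gpc5 to -0.00451 and -0.00461. With libraries left out the range was -0.031 to 0.045 for Gpc1, -0.032 to 0.045 for Gpc2, -0.022 to 0.039 for Gpc5 and -0.027 to 0.036 for Sdc1, so that no direction is given for these 4. Gpc3 lay from -0.23 to -0.16. The sex difference of Gpc4 lay from -0.085 to 0.025. The exact permutation test had 0 to 1 members at an unadjusted p under 0.05 (Gpc3 without Capn15 KO replicate 2 or 3, p = 0.0495 and 0.0390, and Sdc3 without WT replicate 1 or Capn15 KO replicate 4, p = 0.0361 and 0.0385), and the sign-flip test 1 to 3, with Sdc2 and Sdc4 joining Gpc3 without replicate 3 of either genotype. The order of levels had 4 to 6 steps without overlap.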
